A study of Mus musculus with 12 samples.

Results

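TGF-beta ligand, receptor and target genes were examined as a group of 9 genes: the ligands Tgfb1, Tgfb2 and Tgfb3, the receptors Tgfbr1, Tgfbr2 and Tgfbr3, the intracellular mediators Smad3 and Smad7, and Ltbp1, which encodes a protein that stores the ligand in the matrix. A region of a chromatin mark was assigned to a gene when it overlapped the GENCODE gene body or the 50 kb on either side of it. By this rule all 9 genes had at least 1 region, of 19032 protein-coding genes that had one. They held 53 of the 31617 H3K27ac regions and 23 of the 28047 H3K27me3 regions, and 0 regions were shared between members.

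The signal was measured by CUT&RUN, which releases and sequences the DNA around an antibody-bound chromatin mark, in bulk cultures of mouse mesenchymal stem cells (MSCs), stromal cells that can form bone, cartilage and fat. The young group came from mice of 3 to 5 months and the old group from mice of 18 to 22 months, and all cells of both groups were grown only at 2% O2, with no genetic change or drug named. H3K27ac, acetylation of lysine 27 of histone H3, marks active promoters and enhancers, and H3K27me3, trimethylation of the same lysine, marks Polycomb-repressed chromatin. Each age had 3 replicates per mark, 12 libraries in 4 groups, and the cells of a sample were divided between both antibodies. Strain and sex are not given in the labels, and nothing there says that the replicates came from separate animals or cultures, so p-values measure the spread between these samples, which may be technical.

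TGF-beta is secreted in a latent complex with its propeptide and a latent TGF-beta binding protein such as Ltbp1, and has to be freed before it can bind. The active ligand brings the type II receptor Tgfbr2 and the type I receptor Tgfbr1 together, with Tgfbr3 (betaglycan) as a co-receptor, and the type I receptor phosphorylates Smad2 and Smad3, which enter the nucleus with Smad4. Smad7 is induced by this signal and inhibits the type I receptor, and in MSCs the pathway is known for driving proliferation and matrix production and for its part in cartilage formation.

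The libraries held 2750953 to 5541429 reads for H3K27ac and 3622108 to 9947515 for H3K27me3, and old replicate 2 was the shallowest for both. The label was checked against marker genes: 9 of 9 mesenchymal markers had an H3K27ac promoter region, with a summed signal of 747 to 855 in young and 766 to 837 in old libraries. Of 7 blood markers 1 (Csf1r) had one, with 13.8 to 18.0 in young and 14.3 to 19.5 in old libraries, and the defining blood genes Ptprc and Spi1 had none. Of 4 endothelial markers 1 (Pecam1) had one, with 6.53 to 8.22 in young and 7.17 to 11.0 in old libraries, and of 2 muscle markers 0 had one. H3K27me3 lay at 2 of 9 mesenchymal, 3 of 7 blood, 3 of 4 endothelial and 2 of 2 muscle promoters. Its summed signal at the mesenchymal markers was 64.6 to 69.3 in young and 61.8 to 75.6 in old libraries. At the others every old library was below every young one, with 888 to 934 in young and 765 to 886 in old libraries for blood, 359 to 374 and 316 to 356 for endothelium, and 907 to 985 and 764 to 874 for muscle. The part of this in the H3K27me3 results was not tested.

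Signal here is the deposited value, reads in a region relative to library size with a fixed divisor of 0.5 kb, after scaling of the libraries of a mark to a common median ratio. It is not divided by the length of the region, so long regions carry high values, and levels are compared between genes per kb of region instead. Differences are old minus young on the scale of log2(signal + 0.5), adjusted p-values are those of limma over all regions or all genes of a mark, and a difference was called at an adjusted p under 0.05. Means are given with the SD of 3 libraries. The scaling sets the median region close to no difference, so all differences are relative to it. A change with age shared by most regions would not show in them. In bulk chromatin, fewer cells with a mark and less signal per cell cannot be told apart.

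At the 9 genes H3K27ac lay over most start sites, in gene bodies and in the flanks, and H3K27me3 mostly flanked the genes. Of the 53 H3K27ac regions 9 lay over a start site, 17 others overlapped a gene body, 14 lay upstream and 13 downstream. Of the 23 H3K27me3 regions 2 lay within 1 kb of a start site, 4 others overlapped a gene body, 11 lay upstream and 6 downstream. Of the 18 annotated start sites of the members, 16 were inside H3K27ac and 3 inside H3K27me3. The exceptions were the start sites of Ltbp1 and Tgfbr1 described below. Tgfb3 and Smad7 had 0 H3K27me3 regions within 50 kb. The H3K27ac regions of the members were longer than most, with a median of 8.5 kb against 4.0 kb over all regions, and 7 of the 53 were at least 50 kb long, against 3.54% of all regions. Overlap with a window favours long regions, and regions taken by the same rule at other genes were not compared.

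**Figure D1:**
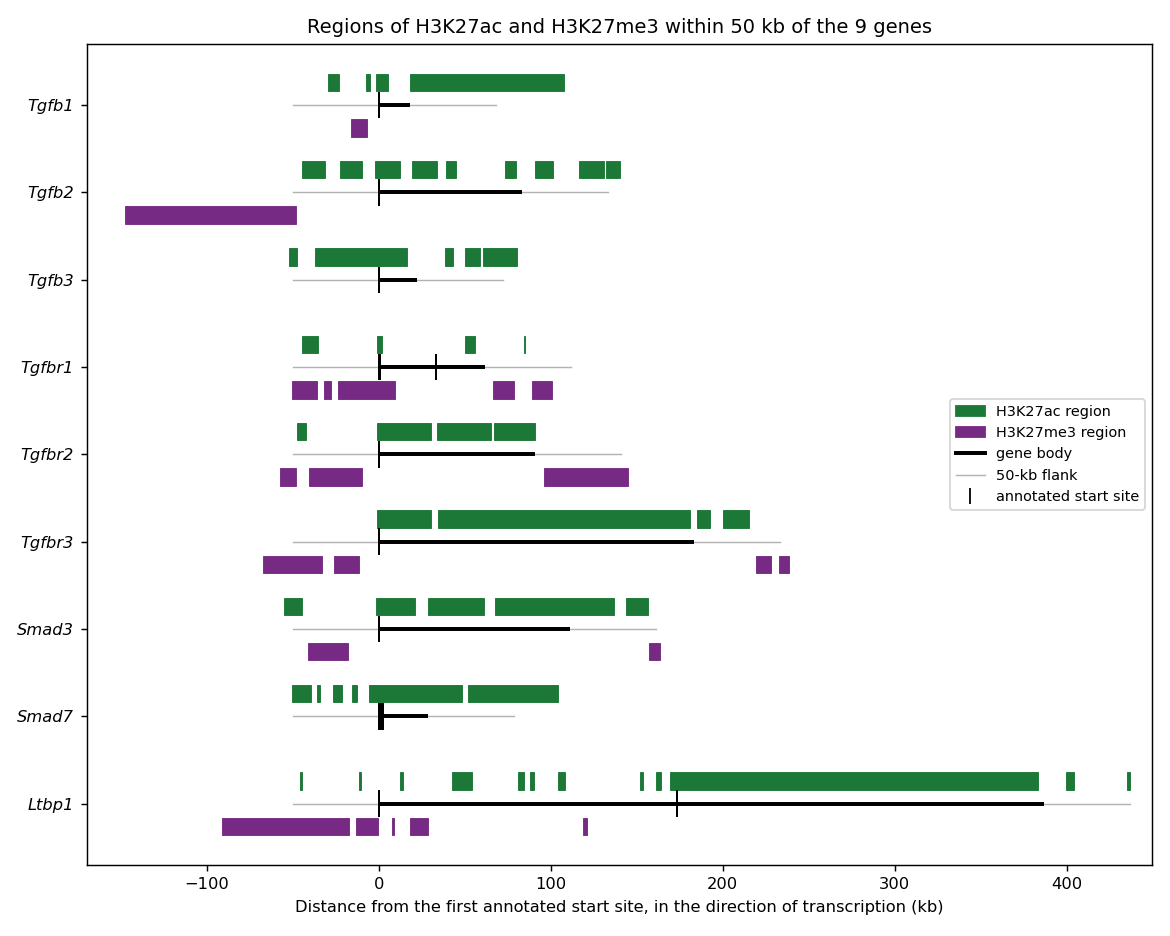
Regions of H3K27ac (green) and H3K27me3 (purple) at each gene, against the distance in kb from the first annotated start site in the direction of transcription; the black line is the gene body, the grey line the 50-kb flank and the ticks the annotated start sites. H3K27ac covers the start of every gene but Ltbp1, whose first start site adjoins H3K27me3 and whose inner start site opens a 214-kb H3K27ac region.

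Promoter sequences are shown for the genes at which the marks separated start sites, and for Tgfbr2, which had the largest H3K27ac difference between the ages. RefSeq promoters were found for 6 of the 9 genes, and all 8 promoters matched the GRCm38.p6 genome. Each line is the 250 bases before the RefSeq start, 5′ to 3′ on the strand of the gene. Capitals mark 5 motifs searched on both strands, namely the SMAD box, a GC-rich SMAD motif, the AP-1 site, the GC box and the TATA box. A match is a description of the letters and not of binding. The positions, in the order of the lines, are chr17:75005279-75005528 (+), chr17:75178531-75178780 (+), chr4:47352972-47353221 (+), chr4:47385966-47386215 (+) and chr9:116175364-116175613 (-).
Ltbp1, outer start site: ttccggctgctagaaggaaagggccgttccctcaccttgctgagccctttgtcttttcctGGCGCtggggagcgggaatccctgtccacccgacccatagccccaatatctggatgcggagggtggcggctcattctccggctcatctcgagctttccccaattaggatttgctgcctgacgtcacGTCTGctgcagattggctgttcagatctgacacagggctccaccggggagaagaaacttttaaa
Ltbp1, inner start site: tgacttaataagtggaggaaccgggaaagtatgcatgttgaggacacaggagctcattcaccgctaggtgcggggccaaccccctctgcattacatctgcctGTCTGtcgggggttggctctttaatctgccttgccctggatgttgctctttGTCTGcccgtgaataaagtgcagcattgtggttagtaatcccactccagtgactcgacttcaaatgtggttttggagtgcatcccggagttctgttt
Tgfbr1, main start site: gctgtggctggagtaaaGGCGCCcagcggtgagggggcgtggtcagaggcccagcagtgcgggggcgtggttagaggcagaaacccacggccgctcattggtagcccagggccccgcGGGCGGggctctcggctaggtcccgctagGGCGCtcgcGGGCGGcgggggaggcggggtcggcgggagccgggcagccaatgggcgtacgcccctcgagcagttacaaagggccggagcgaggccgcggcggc
Tgfbr1, inner start site: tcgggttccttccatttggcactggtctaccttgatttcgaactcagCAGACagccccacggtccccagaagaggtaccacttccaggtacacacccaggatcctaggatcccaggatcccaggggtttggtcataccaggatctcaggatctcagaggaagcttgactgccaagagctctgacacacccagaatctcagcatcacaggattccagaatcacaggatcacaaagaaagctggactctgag
Tgfbr2: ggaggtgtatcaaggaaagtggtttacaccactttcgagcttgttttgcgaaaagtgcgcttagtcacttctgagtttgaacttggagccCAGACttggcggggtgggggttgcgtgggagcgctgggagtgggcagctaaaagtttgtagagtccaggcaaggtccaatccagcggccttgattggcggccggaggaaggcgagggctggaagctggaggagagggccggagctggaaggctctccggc
The outer Ltbp1 promoter held 1 SMAD box, 1 GC-rich SMAD motif and 12 CpG dinucleotides, and the inner one held 2 SMAD boxes and 7 CpG. The main Tgfbr1 promoter, with both marks, held 29 CpG, 2 GC boxes and 3 GC-rich SMAD motifs, 2 of which overlap in 1 palindrome, while its inner promoter, with neither mark, held 3 CpG and 1 SMAD box. The Tgfbr2 promoter held 12 CpG and 1 SMAD box. Over the full window of 300 bases, the SMAD box, searched as CAGAC, was present in 49.6% of the 32851 promoters of the table. The GC-rich SMAD motif, searched as GGCGC, was present in 36.9% of them. The AP-1 site, searched as TGANTCA, was present in 7.81%. The GC box, searched as GGGCGG, was present in 35.7%. The TATA box, searched as TATAAA, was present in 13.6%. The Tgfb1 promoter held 5 GC boxes upstream of its start, Smad3 held 2, and Tgfb2 held 2 SMAD boxes and a TATA box.

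Between old and young MSCs, 0 of the 53 H3K27ac regions and 0 of the 23 H3K27me3 regions were called by limma, and edgeR and DESeq2 on the recovered reads also called 0 in each mark, although DESeq2 gave no adjusted p for 6 and 17 of them. Over all regions 0.0822% were called for H3K27ac and 0.488% for H3K27me3, so a count of 0 among so few regions is near the background. An unadjusted p under 0.05 was found by limma for 4 H3K27ac member regions (7.55%, against 9.6% of all regions) and 3 H3K27me3 member regions (13.0%, against 13.9%), by edgeR for 5 and 4, and by DESeq2 for 0 and 2. The old and young libraries did not overlap in 7 H3K27ac regions (13.2%, against 14.5% of all), 2 with old above young and 5 with old below. For H3K27me3 they did not overlap in 6 regions (26.1%, against 19.1% of all), 2 above and 4 below. Of the H3K27ac regions 28 were higher and 25 lower in old cells, with a median difference of 0.01 on the log2 scale, and of the H3K27me3 regions 11 were higher and 12 lower, with a median of -0.03. Over all regions these medians were -0.0028 and -0.0077.

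**Figure D2:**
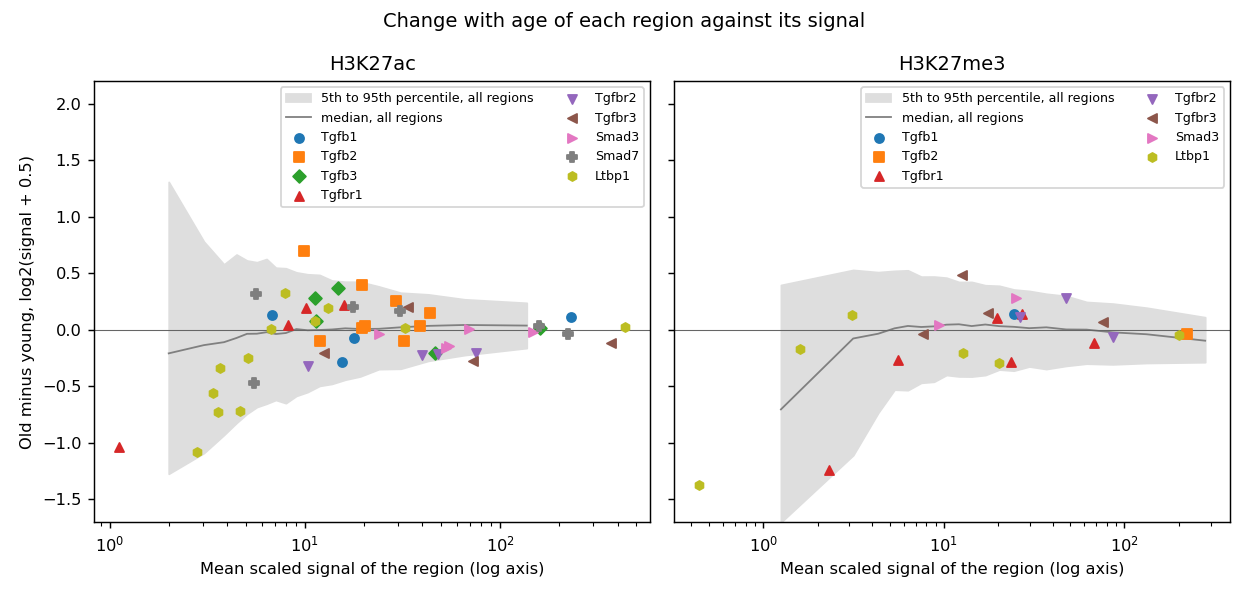
Old minus young difference of every member region (log2 of signal + 0.5) against its mean scaled signal on a log axis, 1 panel per mark and 1 symbol per gene, over the 5th to 95th percentile (grey band) and median (grey line) of all regions in bins of signal. The 53 H3K27ac and 23 H3K27me3 regions lie around 0, and the widest differences are at regions of low signal.

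Summed over all regions of a gene, the signal gave the same result for either mark. Of the 9 genes 0 were called for H3K27ac and of the 7 genes with H3K27me3 0 were called, against 0.684% of 17248 and 0.436% of 17445 protein-coding genes. By limma 1 gene had an unadjusted p under 0.05 for H3K27ac (Tgfbr2; 12.1% of all genes) and 0 for H3K27me3 (14.4% of all genes), with 1 and 0 by edgeR and by DESeq2, which also called 0. In each mark 1 gene had no overlap between the ages (Tgfbr1 for H3K27ac and Smad3 for H3K27me3, both higher in old cells), where 16.6% of all genes had none for H3K27ac and 19.5% for H3K27me3. Both of these sums take in a region in a neighbouring gene, Col15a1 for Tgfbr1 and Iqch for Smad3. The median difference over the members was 0.01 for H3K27ac and 0.07 for H3K27me3, beside 0.03 and -0.04 over all genes. The members' differences ran from -0.22 to 0.14 for H3K27ac, with SEs of 0.06 to 0.15, and from -0.09 to 0.22 for H3K27me3, with SEs of 0.08 to 0.14.

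**Figure D3:**
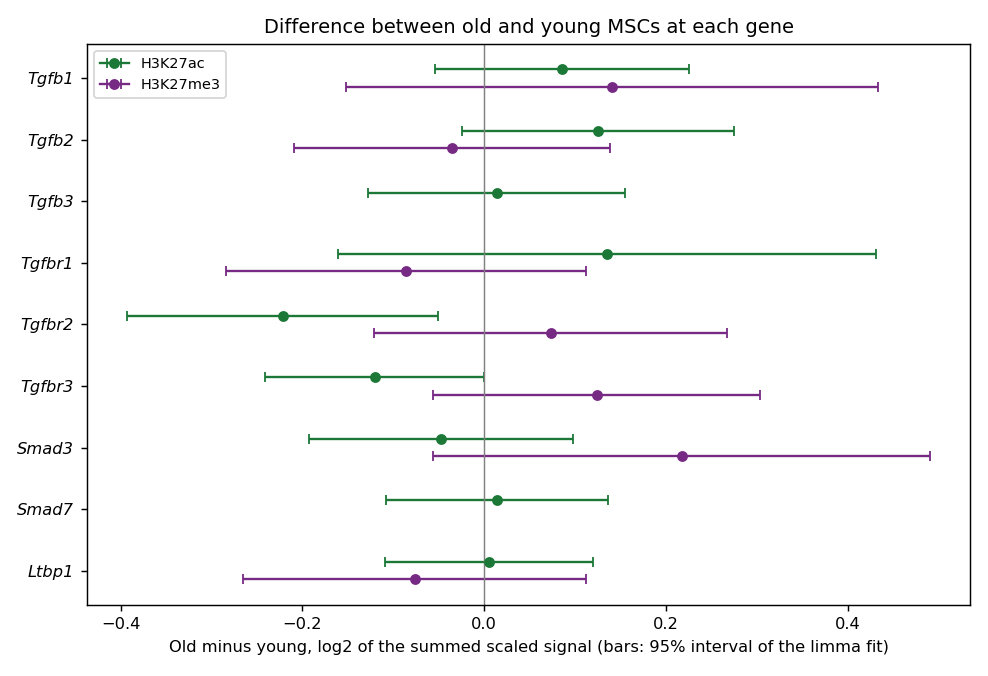
Old minus young difference of the summed signal of each gene, on the log2 scale, for H3K27ac (green) and H3K27me3 (purple), with the 95% interval of the limma fit. All intervals but that of H3K27ac at Tgfbr2, from -0.39 to -0.05, hold 0, and Tgfb3 and Smad7 have no H3K27me3 value.

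Per kb of region, H3K27ac was highest at Smad7, at 1.73 ± 0.0754 (SD of 6 libraries of both ages) on the RPKM scale, reads per kb of region relative to library size, and the range of its libraries lay above that of Tgfb3, the next gene, at 1.33 ± 0.0285. Below these came Tgfb1 at 1.29, Tgfbr3 at 1.22, Smad3 at 1.17, Tgfb2 at 1.13, Ltbp1 at 1.06, Tgfbr1 at 0.953 and Tgfbr2 at 0.944, and from Tgfb3 down each gene overlapped the next. H3K27me3 per kb was highest at Tgfb1, at 1.35 ± 0.135, followed by Ltbp1 at 1.18, Tgfb2 at 1.12, Tgfbr1 at 0.962, Tgfbr2 at 0.900 and Tgfbr3 at 0.894, each overlapping the next. Smad3 was lowest at 0.576 ± 0.0831, below the range of Tgfbr3. The H3K27me3 value of Tgfb1 is that of 1 region at the promoters of B9d2 and Tmem91. That of Tgfb2 comes from a 99.0-kb region with 1.49 kb inside the window. Neither value can be given to the gene alone. Of the H3K27ac of Tgfb1, 89.5 of 105 kb is a region over the promoters of Axl, Ccdc97 and Hnrnpul1. Of that of Smad7, 52.0 of 127 kb is a downstream region that overlaps Ctif. These H3K27ac values are not of the gene alone either.

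**Figure D4:**
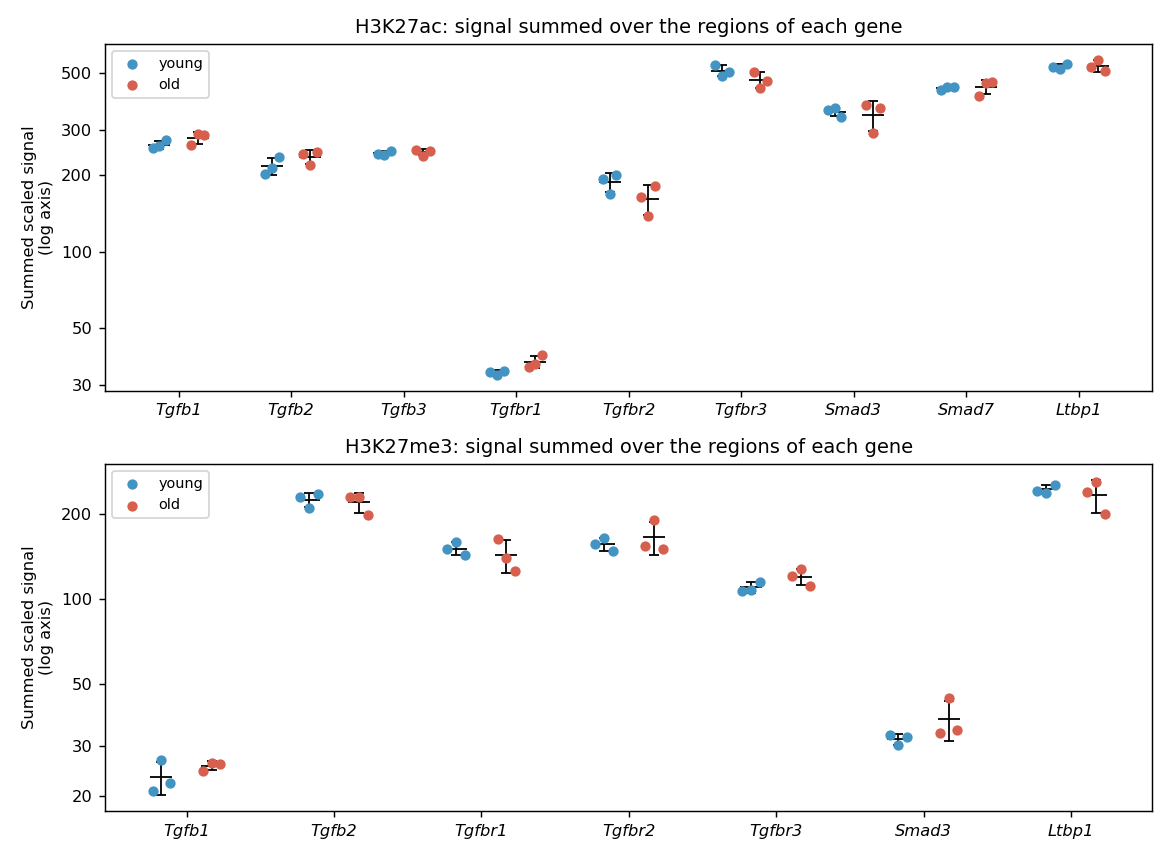
Scaled signal summed over the regions of each gene (log axis) in the 3 young (blue) and 3 old (red) libraries of H3K27ac (top) and H3K27me3 (bottom), with the mean and SD of each group in black. Sums are not divided by length, so genes with long regions are high. Within genes, the groups overlap except for H3K27ac at Tgfbr1 and H3K27me3 at Smad3. Both of these sums take in a region in a neighbouring gene.

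Among the ligand genes, Tgfb1 encodes the most widely expressed isoform, on chromosome 7 (chr7:25687002-25705077). Its start site lay in a 7.0-kb H3K27ac region (chr7:25685501-25692500) with a signal of 18.9, 16.7 and 19.1 in the young and 18.3, 14.2 and 19.9 in the old libraries. The ages overlapped, and the difference was -0.07 (SE 0.20, adjusted p = 0.941). Most of the H3K27ac assigned to Tgfb1 lay in an 89.5-kb region that starts at its last exon and covers the promoters of Axl, Ccdc97 and Hnrnpul1 (chr7:25705001-25794500), so it cannot be given to Tgfb1 alone. That region had 214, 219 and 229.6 in young and 217, 254 and 247 in old libraries, which overlapped (difference 0.11, SE 0.07, adjusted p = 0.661, and 0.07 without old replicate 2). H3K27me3 was a single 9.0-kb region 7.00 kb upstream, at the promoters of B9d2 and Tmem91 (chr7:25671001-25680000), with 20.7, 26.8 and 22.2 in young and 24.4, 26.2 and 26 in old libraries. Its ages overlapped as well (0.14, SE 0.14, adjusted p = 0.717), and the difference was 0.06 without young replicate 1 and 0.24 without young replicate 2. The H3K27ac sum of the gene was 262 ± 9.65 in young and 278 ± 15.3 in old libraries (difference 0.09, 95% interval -0.05 to 0.23).

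Tgfb2, the isoform best known from heart and skeletal development, had 9 H3K27ac regions, 7 higher and 2 lower with age, and the 2 H3K27ac member regions in which every old library lay above every young one were both here. The first was a 6.0-kb intronic region 38.7 kb inside the gene (chr1:186661001-186667000), where the signal was 6.53, 6.92 and 8.88 in young and 10.8, 12.6 and 13.8 in old libraries. The difference of 0.70 (SE 0.26) had the smallest p of the 53 H3K27ac regions, 0.00979 unadjusted, and did not pass after adjustment (adjusted p = 0.339). It rested on 12 to 27 reads per library, and the change stayed between 0.59 and 0.82 over 16 alternative fits, with adjusted p-values from 0.281 to 1.00. The other was an 8.0-kb region downstream of the gene (chr1:186566001-186574000), with 17.6, 15.0 and 18.1 in young and 23.1, 20.4 and 23.4 in old libraries (0.39, SE 0.19, adjusted p = 0.503). At the start site itself (chr1:186693501-186708500) the ages overlapped, with 40.8, 32.3 and 41.8 in young and 36.3, 39.3 and 41.8 in old libraries (0.04, SE 0.14, adjusted p = 0.963).

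The downstream region of highest H3K27ac at Tgfb2 (chr1:186575001-186589500) had 36.6, 36.4 and 51.3 in young and 36.3, 49.5 and 52.0 in old libraries (0.15, SE 0.15, adjusted p = 0.808). Its ages overlapped, and with 1 library left out at a time the difference ran from 0.05 (without old replicate 3) to 0.31 (without young replicate 3). The H3K27ac sum of Tgfb2 was 216 ± 16.5 in young and 235 ± 14.3 in old libraries (0.13, 95% interval -0.02 to 0.27, adjusted p = 0.516, and 0.08 without young replicate 1). H3K27me3 met the edge of the upstream flank as a 99.0-kb region that begins 48.5 kb from the start site (chr1:186754501-186853500), with 229, 210.0 and 235 in young and 229.9, 229.8 and 198 in old libraries. The ages overlapped there too (-0.04, SE 0.09, adjusted p = 0.900).

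Tgfb3, the third isoform, known for its role in palate fusion and in cartilage formation by MSCs, lay in a 54.0-kb H3K27ac region that also covers the promoter of Ift43 (chr12:86062501-86116500). It had 156, 159 and 160.2 in young and 157, 159 and 167 in old libraries, which overlapped (0.02, SE 0.08, adjusted p = 0.966). Downstream, in Ttll5, an 8.5-kb region (chr12:86020501-86029000) had 14.0, 13.3 and 11.2 in young and 19.9, 13.4 and 17.3 in old libraries, which overlapped (0.37, SE 0.22, adjusted p = 0.619, and 0.24 without old replicate 1). Its 20.0-kb neighbour (chr12:85998501-86018500) went the other way, with 48.0, 49.6 and 51.0 in young and 47.0, 37.7 and 44.3 in old libraries. There every old library was below every young one (-0.21, SE 0.13, adjusted p = 0.658). The sum over the 5 regions was 242 ± 5.02 in young and 245 ± 6.23 in old libraries (0.01, 95% interval -0.13 to 0.15).

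Among the receptors, Tgfbr1, the type I receptor kinase, had the smallest share of its window under H3K27ac and the largest under H3K27me3. H3K27ac covered 11.4% of this window (the gene body and both flanks) and H3K27me3 46.6%, whereas H3K27ac covered 48.1% to 78.6% of the windows of the other 8 genes. Its main start site was the one place among the members where both marks overlapped a start site: a 3.0-kb H3K27ac region (chr4:47352001-47355000) lay within a 31.0-kb H3K27me3 region (chr4:47331501-47362500). These bulk data do not show whether both marks were on the same chromosomes. H3K27ac there was 8.82, 9.23 and 5.59 in young and 10.4, 4.72 and 10.2 in old libraries, on 6 to 27 reads, and the ages overlapped (0.04, SE 0.31, adjusted p = 0.980). H3K27me3 there was 65.0, 76.9 and 69.6 in young and 77.1, 63.1 and 56.1 in old libraries, which also overlapped (-0.12, SE 0.12, adjusted p = 0.718), and the difference ran from -0.24 (without old replicate 1) to -0.0080 (without old replicate 3).

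The inner start site of Tgfbr1 (position 47386216) had neither mark, and was 16.8 kb from H3K27ac and 23.7 kb from H3K27me3. Next to the large H3K27me3 region, a 2.0-kb region that the authors had given the state young (chr4:47329501-47331500) had 4.15, 3.42 and 2.62 in young and 0.437, 1.71 and 1.58 in old libraries. Every old library was below every young one, on 2 to 21 reads, and the difference of -1.24 (SE 0.39) had the smallest p of the 23 H3K27me3 regions, 0.00438 unadjusted (adjusted p = 0.136, and 0.0509 to 0.447 over 15 alternative fits). A state given to a region from these same libraries is not independent of this difference. Of the other H3K27me3 regions of Tgfbr1, chr4:47321001-47325500 had 5.93, 6.24 and 6.28 in young and 5.46, 4.55 and 5.07 in old libraries, with old below young (-0.27, SE 0.24, adjusted p = 0.662). The region chr4:47419501-47431500 had 19.0, 19.3 and 18.8 in young and 20.5, 19.3 and 21.6 in old libraries, with old above young by a small margin (0.10, SE 0.15, adjusted p = 0.813). The upstream H3K27ac region of highest signal (chr4:47308501-47317500), in Col15a1, had 14.7, 13.3 and 15.8 in young and 13.6, 19.7 and 18.3 in old libraries and overlapped (0.22, SE 0.21, adjusted p = 0.794, and 0.11 without old replicate 2). A 0.5-kb H3K27ac region downstream (chr4:47437501-47438000) had 1 to 6 reads per library, so no change could be read from it. The H3K27ac sum of Tgfbr1 was 33.6, 32.9 and 34.2 in young and 35.5, 36.2 and 39.2 in old libraries, and every old library was above every young one (0.14, SE 0.15, adjusted p = 0.777). This sum takes in the 9.0-kb region in Col15a1, of 18.5 kb in all, so it cannot be given to Tgfbr1 alone. In no single H3K27ac region of Tgfbr1 was every old library above every young one. The H3K27me3 sum was 150.1, 158 and 143 in young and 163, 139 and 125 in old libraries, which overlapped (-0.09, SE 0.09, adjusted p = 0.708).

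Tgfbr2, the type II receptor that binds ligand and activates Tgfbr1, had the largest H3K27ac difference of the 9 genes, with less in old cells in all 4 of its regions. The sum was 192, 168 and 199.6 in the young and 164, 138 and 180.4 in the old libraries, which overlapped. The means were 187 ± 16.2 and 161 ± 21.6, and the difference of -0.22 (SE 0.09, 95% interval -0.39 to -0.05) had an unadjusted p of 0.0120 and did not pass after adjustment (adjusted p = 0.247). Old replicate 2, the shallowest library, was the lowest, and without it the difference was -0.12 (adjusted p = 0.766). The difference was negative in all 20 alternative fits, from -0.34 to -0.12, with adjusted p-values from 0.0546 to 0.861. Over the start site (chr9:116145001-116176500) the signal was 79.4, 69.2 and 93.7 in young and 71.7, 56.6 and 82.0 in old libraries, which overlapped (-0.21, SE 0.12, adjusted p = 0.631), and without old replicate 2 the difference was -0.06. A further 2 regions in the gene body had differences of -0.21 and -0.22. At the fourth region, 42.6 kb upstream (chr9:116218001-116223000), every old library was below every young one, with 11.4, 11.0 and 12.5 in young and 9.57, 9.44 and 8.66 in old libraries (-0.32, SE 0.24, adjusted p = 0.723).

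H3K27me3 bordered Tgfbr2 on either side, beginning 10.1 kb upstream of the start site. The 30.5-kb upstream region (chr9:116185501-116216000), between the promoter and the upstream H3K27ac region, had 45.6, 46.1 and 35.3 in young and 41, 68.2 and 48.2 in old libraries (0.28, SE 0.16, adjusted p = 0.438). The ages overlapped, old replicate 2 was the highest, and without it the difference was 0.08 (adjusted p = 0.837). The 49.0-kb downstream region (chr9:116030501-116079500) had 87.3, 90.1 and 87.1 in young and 86.9, 90.4 and 77.0 in old libraries, which overlapped (-0.06, SE 0.10, adjusted p = 0.836). The H3K27me3 sum was 156, 165 and 147 in young and 154, 190.0 and 150.3 in old libraries (0.07, SE 0.09, adjusted p = 0.756), and without old replicate 2 the difference was -0.03.

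Tgfbr3, the co-receptor that presents ligand, was covered by H3K27ac over 70.8% of its window, most of it in a 146.5-kb region of the gene body with 15 exons (chr5:107108501-107255000). That region had 412, 363 and 383 in young and 385, 337 and 347 in old libraries, which overlapped (-0.12, SE 0.06, adjusted p = 0.577, and -0.08 without old replicate 2). Over the start site (chr5:107259501-107291000) every old library was below every young one, with 81.7, 80.8 and 77.3 in young and 72.1, 58.2 and 67.8 in old libraries. The difference of -0.28 (SE 0.11, unadjusted p = 0.0161) was the clearest of the 9 start-site regions of H3K27ac by its p and did not pass after adjustment (adjusted p = 0.394, and 0.271 to 1.00 over 16 alternative fits, all with a negative difference). The sum was 537, 488 and 506 in young and 505, 438 and 467 in old libraries, which overlapped (-0.12, SE 0.06, 95% interval -0.24 to 0.0003, adjusted p = 0.414). Old replicate 2 was the lowest here too, and without it the difference was -0.07 (adjusted p = 0.811).

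H3K27me3 lay outside the Tgfbr3 gene on either side. A 9.0-kb region downstream (chr5:107061501-107070500) had 10.9, 10.1 and 10.5 in young and 12.9, 16.5 and 15.2 in old libraries. Every old library was above every young one (0.48, SE 0.18, unadjusted p = 0.0136), and the adjusted p was 0.215, with 0.152 to 0.488 over 16 alternative fits. The 34.5-kb region upstream, at the promoter of Brdt (chr5:107322501-107357000), had 71.7, 76.5 and 75.3 in young and 80.3, 83.6 and 71.6 in old libraries and overlapped (0.07, SE 0.10, adjusted p = 0.801). The H3K27me3 sum was 109.5 ± 4.64 in young and 119 ± 7.81 in old libraries (0.12, 95% interval -0.06 to 0.30, adjusted p = 0.517, and 0.08 without old replicate 2).

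Smad3, a transcription factor phosphorylated by the type I receptor, had H3K27ac over 67.9% of its window. Its start-site region (chr9:63737001-63760000) had 52.3, 57.1 and 56.9 in young and 53.0, 44.8 and 51.0 in old libraries, which overlapped (-0.16, SE 0.12, adjusted p = 0.723, and -0.09 without old replicate 2). The 69.5-kb region over 8 of its exons (chr9:63621001-63690500) had 153, 153 and 136 in young and 162, 117 and 161 in old libraries (-0.02, SE 0.10, adjusted p = 0.975, and 0.13 without old replicate 2). Here the low old value was again that of old replicate 2. H3K27me3 was sparse at Smad3, and the region 18.0 kb upstream of its start (chr9:63776001-63799500) was among the thinnest per kb, at the 2.88th percentile of all H3K27me3 regions. It had 23.5, 19.5 and 24.6 in young and 24.7, 35.3 and 23.5 in old libraries (0.28, SE 0.16, adjusted p = 0.458, and 0.10 without old replicate 2). The H3K27me3 sum of Smad3 was 32.8, 30.2 and 32.4 in young and 33.4, 44.4 and 34.2 in old libraries, so that every old library was above every young one. The sum adds a 6.5-kb region in Iqch to the upstream one, and in each region alone the ages overlapped. The difference of the sum was the largest H3K27me3 difference of the members, 0.22 (SE 0.13, 95% interval -0.06 to 0.49, adjusted p = 0.451), and without old replicate 2 it was 0.09 (adjusted p = 0.737).

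Smad7, the inhibitor induced by TGF-beta, had the densest H3K27ac of the members and no H3K27me3 region. The 54.0-kb region over its start sites and whole gene body on chromosome 18 was at the 98.9th percentile of all H3K27ac regions per kb. It had 223, 229.7 and 220.0 in young and 205, 217 and 234 in old libraries, which overlapped (-0.04, SE 0.07, adjusted p = 0.916). A 2.0-kb region upstream with the smallest p of the gene had 6.86, 6.35 and 5.59 in young and 2.39, 4.72 and 7.13 in old libraries, on 6 to 21 reads (-0.47, SE 0.35, adjusted p = 0.716, and -0.10 without old replicate 1), and the ages overlapped. The sum over the 6 regions of the gene was 436 ± 5.59 in young and 441 ± 29.4 in old libraries (0.01, 95% interval -0.11 to 0.14, adjusted p = 0.958). It takes in a 52.0-kb downstream region that overlaps Ctif.

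Ltbp1, the binding protein that anchors latent TGF-beta in the matrix, is known to be made in a long and a short form from separate promoters, and the marks differed between its start sites. The outer start site (position 75005568) lay 10.6 kb from the nearest H3K27ac region and 0.568 kb past the end of a 13.0-kb H3K27me3 region (chr17:74992001-75005000). The inner start sites (positions 75178810 and 75178911) were near the head of a 214-kb H3K27ac region that ran through nearly all the rest of the gene (chr17:75175001-75389000), and were 52.3 kb from the nearest H3K27me3. That region was longer than 99.9% of all H3K27ac regions, and per kb it was at the 38.5th percentile. It had 429, 424 and 447 in young and 427, 468 and 426 in old libraries, which overlapped (0.02, SE 0.06, adjusted p = 0.939).

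At the outer start site of Ltbp1, H3K27me3 was 22.7, 22.7 and 21.7 in young and 17.9, 19.3 and 17.4 in old libraries. Every old library was below every young one, by means of 22.4 ± 0.587 and 18.2 ± 0.992, and the difference of -0.29 (SE 0.15, unadjusted p = 0.0589) was not called (adjusted p = 0.381). It lay between -0.41 and -0.25 over 16 alternative fits, with adjusted p-values of 0.134 to 0.638. Inside this H3K27me3 region was a 1.0-kb H3K27ac region (chr17:74994001-74995000) with 4.25, 5.19 and 2.63 in young and 1.20, 1.57 and 2.04 in old libraries, on 2 to 13 reads. Old was below young here too (-1.08, SE 0.48, adjusted p = 0.453). Further upstream, a 73.5-kb H3K27me3 region (chr17:74914501-74988000) carried most of the mark, with 199, 196 and 212 in young and 206, 225 and 161 in old libraries, which overlapped (-0.05, SE 0.10, adjusted p = 0.887). A 0.5-kb intronic H3K27me3 region with the state young (chr17:75013001-75013500) had at most 7 reads in a young library and 0 in the old ones. A count of 0 allows up to 3 reads, so no change could be read from it. The sums of Ltbp1 overlapped between the ages for either mark, with 530.2 ± 12.4 and 533 ± 28.0 for H3K27ac (0.01, 95% interval -0.11 to 0.12) and 244 ± 8.17 and 232 ± 30.9 for H3K27me3 (-0.08, 95% interval -0.27 to 0.11).

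The balance of the marks was taken for the 7 genes with both as log2 of the H3K27ac signal minus log2 of the H3K27me3 signal within a sample, each per kb of the regions of that mark at the gene. The tables were normalised separately, so the balance has no absolute zero and is given with no test. It was highest at Smad3 (1.14 ± 0.11 in young and 0.88 ± 0.42 in old samples), followed by Tgfbr3. The Smad3 value is not of this gene alone. Its H3K27ac includes a region at the promoters of Aagab and Iqch, and its H3K27me3 includes a region in Iqch. The other 5 genes had means between -0.20 and 0.21, with Tgfbr1 at -0.11 ± 0.10 and 0.12 ± 0.26 and Tgfb1 at -0.07 ± 0.19 and -0.12 ± 0.03. Tgfb1 had 105 kb of H3K27ac beside 9.0 kb of H3K27me3, and Tgfbr1 18.5 kb beside 76.0 kb, so the sums of these genes, not divided by length, differ far more than the balance per kb. The H3K27me3 of Tgfb1 lay at promoters of other genes and that of Tgfb2 almost wholly outside its window. The balance of Tgfb1 and Tgfb2 is therefore not of these genes alone. That of Tgfbr1 takes in a region of each mark at Col15a1. That of Tgfbr2 takes in the 49.0-kb H3K27me3 region, which overlaps Gadl1. Old and young samples differed in balance by less than 0.30 at each gene, and the median difference of the 7 was -0.05. At Tgfbr3 it was 0.69, 0.53 and 0.49 in young and 0.42, 0.14 and 0.42 in old samples, with every old sample below every young one (difference -0.24). This was 1 of the 7 genes, where 19.3% of the 15661 genes with both marks had no overlap. The balance of Tgfbr3 is not of this gene alone either. Of its 64.0 kb of H3K27me3, 34.5 kb is the region at the promoter of Brdt. At Tgfbr2 the balance was 0.25, -0.01 and 0.39 in young and 0.04, -0.51 and 0.22 in old samples, which overlapped (difference -0.29). At Smad3 it was 1.11, 1.26 and 1.05 in young and 1.16, 0.39 and 1.08 in old samples (difference -0.26), and the low value at either gene was that of old replicate 2. Tgfbr1 differed by 0.22, Tgfb2 by 0.16, Ltbp1 by 0.08 and Tgfb1 by -0.05, all with overlapping samples.

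**Figure D5:**
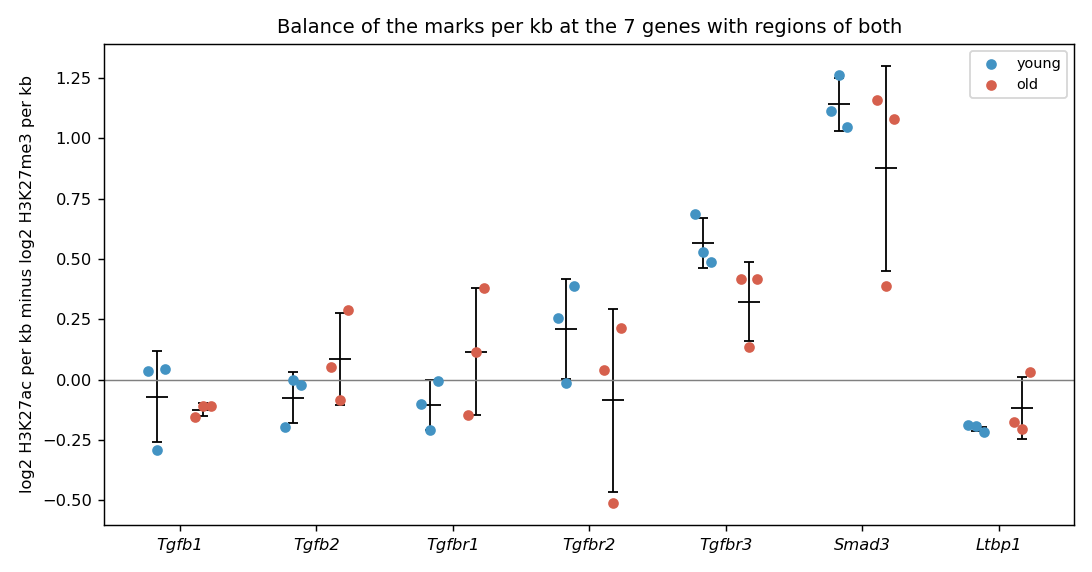
Balance of the marks, log2 of H3K27ac per kb minus log2 of H3K27me3 per kb, at each gene with both marks, in 3 young (blue) and 3 old (red) samples with the mean and SD in black. Smad3 and Tgfbr3 have the highest means, and the ages overlap at each gene except Tgfbr3, where old samples lie below young ones. The values of Smad3 and Tgfbr3 take in regions at neighbouring genes.

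A list of 34 other genes of the pathway was measured at their promoters, within 1 kb of a start site. All 34 had H3K27ac there, in 35 regions, 20 higher and 15 lower with age, with 0 called (0.0822% of all H3K27ac regions), 5 at an unadjusted p under 0.05 (14.3%, against 9.6% of all regions) and a median difference of 0.05. By edgeR 0 were called and 6 had such a p, and by DESeq2 0 and 1. H3K27me3 lay at the promoters of 4 genes, Bambi, Dcn, Fbn2 and Ltbp4, with 2 higher and 2 lower and 0 called (0.488% of all H3K27me3 regions). An unadjusted p under 0.05 was found for 3 of these 4 by limma (13.9% of all regions), 2 by edgeR and 1 by DESeq2. The lowest adjusted p was 0.138 for H3K27ac, at Ltbp2, another latent TGF-beta binding protein family member, with 315 ± 42.2 in young and 382 ± 20.3 in old libraries and no overlap (0.29, SE 0.07). With the replicate number as a block this region was called (limma adjusted p = 0.0420), and whether the numbers pair old and young samples is not known. Ltbp3, a related binding protein, had 61.3 ± 6.85 and 73.9 ± 0.937 (0.27, SE 0.11, adjusted p = 0.420), with old above young. At Dcn, which encodes the matrix proteoglycan decorin that can bind TGF-beta, H3K27ac was 44.8 ± 17.4 in young and 30.0 ± 3.68 in old libraries, which overlapped (-0.51, SE 0.19, adjusted p = 0.368). H3K27me3 at Dcn was 6.25 ± 2.11 in young and 9.24 ± 1.06 in old libraries, with old above young (0.57, SE 0.24, adjusted p = 0.287). For H3K27me3, Fbn2, a microfibril protein, differed by 0.26 (SE 0.10, adjusted p = 0.201) and Ltbp4 by -0.47 (SE 0.22, adjusted p = 0.332).

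As a description of likeness over the 6 libraries of a mark, the H3K27ac sum of Tgfbr2 was correlated most with those of Wdr35 (Pearson r = 0.991), Mxi1 (0.982) and Alg14 (0.982), of 8624 genes compared, 22 of which were above 0.95. The H3K27me3 sum of Smad3 was correlated most with those of Sfr1 (0.983), Efcab2 (0.983) and Zyg11b (0.981), of 8722 genes, 27 of which were above 0.95. The 6 points share their libraries and depths, and no test was made.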

How the data were processed

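CUT&RUN signal of both marks was taken from 1 table per mark. Per the submitters' processing notes, Bowtie2 and Picard were used with the mouse build mm10 (GRCm38). The caller of the regions and its settings are not given in the sources used here, and the yeast DNA added as a spike-in was not used here. The authors deposited, for each region and library, a signal named RPKM that was not divided by region length: 100% of values in the 12 columns lay within 0.01 of a read of whole multiples of 1 read over a fixed 0.5 kb, so whole reads and library totals were recovered. The planned test had assumed RPKM and was kept, and 0 columns of per-sample values were left unused. Reads inside regions made up 62.3% to 66.6% of the young and 53.8% to 60.8% of the old H3K27me3 libraries. For H3K27ac they made up 33.7% to 41.4% of the young and 33.4% to 39.2% of the old libraries. The reason was not tested, and without the spike-in a change of a mark over the whole genome was not measured. All regions lay within the chromosomes of GRCm38 and were placed on the GENCODE vM21 basic annotation, and promoter sequences came from RefSeq (GRCm38.p6).

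Libraries were scaled within each mark by median ratios (RLE), and log2(signal + 0.5), with no filter on low values, was fitted with limma 3.58.1 in R 4.3.3 with a variance trend and robust moderation, as 3 old against 3 young libraries, two-sided, with Benjamini-Hochberg adjustment over all regions of the mark. The same fit was made on the signal summed over the regions within 50 kb of each protein-coding gene; neighbouring genes share regions there. edgeR 4.0.16 and DESeq2 1.42.0 were run on the recovered reads as alternatives. Only the limma fit of regions was tested on simulated data, with changes larger than most differences given here. The fit of the sums, edgeR and DESeq2 were not tested in this way. Python 3.11.15 and matplotlib 3.10.9 were used for the summaries and plots. Replicates of a group differed beyond sampling noise, with a chi-square per degree of freedom of 1.12 to 2.00.

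All 9 genes were named. For each gene and mark the region at a start site, the one of highest mean signal and the one of smallest p were named, with, of the other pathway genes, the 3 of smallest p. Regions whose ages did not overlap were added after their values were seen. The members and the gene lists were chosen with earlier results of these data known. Counting error alone at 6 reads or fewer is large, so small regions carry little information.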

Additional observations from a re-analysis of the deposited data

How the results depend on the processing

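Under each of 20 alternatives, 0 member regions and 0 member genes were called in either mark, and of the medians and counts compared 150 values stayed within the replicate spread or at the same count and 13 did not. For single genes and regions 752 values kept their direction and 51, of differences of at most 0.14 in size, did not; the cause was not tested. Depth limits small regions most. The shallowest library, old replicate 2, gave the lowest or highest sum at 6 of 9 genes for H3K27ac and 4 of 7 for H3K27me3. Tgfbr2, Tgfbr3, Smad3 and Ltbp1 were among these genes in both marks. The share over all genes was not taken, and any library is an extreme at some genes by chance. Whether depth had a part in these counts was not tested.

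With the signal as deposited the median of all regions moved to -0.12 for H3K27ac and -0.13 for H3K27me3. Of all regions, 67.0% for H3K27ac and 70.9% for H3K27me3 were lower in old cells on that scale. H3K27ac differences then became -0.033 at Tgfb1, -0.11 at each of Tgfb3, Smad7 and Ltbp1 and for the median of the members, -0.0048 at the 89.5-kb region of Tgfb1, -0.081, -0.10 and -0.066 at the start sites of Tgfb2, Tgfb3 and Tgfbr1, and -0.097 at the 214-kb region of Ltbp1. H3K27me3 became -0.050 at Tgfbr2 and for the median of the members, and -0.049 at the upstream region of Tgfbr3. With equal column sums, H3K27ac was -0.0063 at Tgfb3, -0.0017 at its start site, -0.0058 at Smad7 and -0.015 at Ltbp1, and H3K27me3 was 0.011 at Tgfb2 and its region. With TMM, H3K27ac at Ltbp1 was -0.0021. edgeR gave -0.0065 at the Tgfb2 start site and 0.030 at the 69.5-kb region of Smad3, where DESeq2 gave 0.017.

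With at least 50% of a region in the window, H3K27ac at Tgfb3 was -0.0018 and the median balance -0.16. With the gene body alone, H3K27ac at Smad7 was -0.037, the H3K27me3 median -0.17 and the median balance 0.24. With 10 kb, Smad7 was again -0.037, H3K27me3 was -0.059 at Tgfbr2 and -0.061 in the median, and the balance 0.082. With 100 kb, H3K27me3 at Tgfb1 was -0.065, the medians 0.058 for H3K27ac and -0.058 for H3K27me3, and the balance 0.13.

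When 1 replicate was left out at a time, the H3K27me3 median ran from -0.032 (without old replicate 2) to 0.13, and the balance from -0.16 (without young replicate 2) to 0.0012. H3K27ac ran from -0.00075 to 0.035 at Tgfb3, -0.12 to 0.067 at Smad3, -0.016 to 0.071 at Smad7 and -0.035 to 0.039 at Ltbp1. For regions it ran from -0.17 to 0.066 at the start site of Tgfb1, -0.080 to 0.10 for Tgfb2, -0.0074 to 0.037 for Tgfb3, -0.17 to 0.39 for Tgfbr1 and -0.086 to 0.0087 for Smad7, from -0.097 to 0.13 at the 69.5-kb region of Smad3, and from -0.023 to 0.046 at the 214-kb region of Ltbp1. H3K27me3 ran from -0.083 to 0.039 at Tgfb2 and its region, -0.19 to 0.0062 at Tgfbr1, -0.032 to 0.14 at Tgfbr2, -0.11 to 0.011 at its downstream region, -0.16 to 0.034 at Ltbp1 and -0.15 to 0.096 at its 73.5-kb region.

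No pairing of the samples by replicate number was seen: the deviations of same-numbered old and young libraries correlated at 0.07, 0.02 and -0.05 for H3K27ac and 0.02, 0.04 and -0.08 for H3K27me3. Counting noise of single regions lowers such correlations, so they cannot exclude a pairing. With the number as a replicate block, 0 member regions and genes were called, and 1 of the 35 other H3K27ac promoter regions of the pathway was, at Ltbp2 (0.29, limma adjusted p = 0.0420).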
